A study of Mus musculus with 8 samples.

Results

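The cells described here are the microglia of the naive brain, 220 of the 926 cells that passed the filters in the libraries of untreated mice, and of the 5733 that passed in the whole series. They were chosen by 4 genes. A cell was taken among the 1000 barcodes with the most unique molecular identifiers (UMIs, 1 per captured transcript) of its library if it had at least 1000 genes detected, and it was counted as microglia if P2ry12, Siglech, Cx3cr1 and Gpr34 together reached 20 UMIs per 10000 with at least 2 of the 4 detected. The rule took 95 of 463 cells in the WT naive library (20.5%, 16.9 to 24.5% by the exact Clopper-Pearson method at 95%) and 125 of 463 in the KO naive library (27%, 23 to 31.3%). These intervals, like all others that rest on UMIs or cells, cover counting error only.

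The study profiled brain cell suspensions of C57BL/6 mice (C57BL/6N in the study's methods) by Drop-seq, a droplet method that counts the 3′ ends of transcripts. It used Irg1/Acod1 +/+ (WT) and Irg1/Acod1 -/- (KO) mice, either untreated or implanted with GL261 glioma cells and taken at an early, intermediate or late stage of tumour growth. Each genotype and condition is 1 library, so there are 8 libraries, 2 of them naive. The study describes each condition as a single biological replicate, and the title of each naive library holds 2 identifiers whose meaning the labels do not give. The KO allele is a germline insertion cassette between exons 3 and 5 of Acod1, the enzyme that makes itaconate, and it is therefore carried by every cell of the KO mice and by none of the WT littermates. Per the study's methods the tissue was dissociated and myelin was removed with beads, without a sort for microglia, and the tumour-bearing libraries came from dissected tumour regions. Ages of the mice are not given in the sources used here, and nothing splits a library by animal.

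Microglia are the resident macrophages of the brain parenchyma. They descend from yolk sac progenitors, depend on signalling through the Csf1 receptor and on TGF-beta, and survey their surroundings with motile processes whose movement towards ATP and ADP is steered by the purinergic receptor P2ry12. In the healthy brain they keep a homeostatic programme (P2ry12, Tmem119, Sall1) that is typically lowered when they respond to injury or disease, while genes of antigen presentation, interferon response and phagocytosis are raised.

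Transcription of many myeloid genes depends on PU.1 (gene Spi1), whose binding sites carry the core GAGGAA. The start regions of 4 genes are shown to let a reader see this core: 2 subunits of complement C1q and the cathepsin S gene, whose levels are given below, and the lectin Siglech, a gene of the rule, which chose the cells. Each runs from 250 bases before to 50 bases after the annotated start (RefSeq, GRCm38.p6), 5′ to 3′ on the strand of the gene. The windows are chr4:136886151-136886450 (minus strand), chr4:136892865-136893164 (minus strand), chr3:95526536-95526835 (plus strand) and chr7:55767934-55768233 (plus strand). Capitals mark GAGGAA or, for a match on the other strand, its reverse complement TTCCTC.
C1qb: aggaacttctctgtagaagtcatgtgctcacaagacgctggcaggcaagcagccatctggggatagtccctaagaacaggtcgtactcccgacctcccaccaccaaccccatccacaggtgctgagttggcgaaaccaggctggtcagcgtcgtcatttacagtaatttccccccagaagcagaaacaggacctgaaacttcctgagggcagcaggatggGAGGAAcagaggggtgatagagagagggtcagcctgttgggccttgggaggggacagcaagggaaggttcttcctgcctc
C1qc: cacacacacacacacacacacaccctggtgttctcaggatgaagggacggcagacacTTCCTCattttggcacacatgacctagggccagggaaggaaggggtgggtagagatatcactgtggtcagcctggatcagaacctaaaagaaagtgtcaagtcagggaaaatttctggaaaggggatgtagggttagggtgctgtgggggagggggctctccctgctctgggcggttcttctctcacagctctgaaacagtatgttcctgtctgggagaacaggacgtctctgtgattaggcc
Ctss: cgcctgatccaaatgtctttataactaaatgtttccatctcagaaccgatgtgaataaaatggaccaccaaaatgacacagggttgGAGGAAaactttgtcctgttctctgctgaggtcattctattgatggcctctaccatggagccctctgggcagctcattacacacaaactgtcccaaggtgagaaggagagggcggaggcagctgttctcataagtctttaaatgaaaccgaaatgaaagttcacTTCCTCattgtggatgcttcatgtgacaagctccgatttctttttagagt
Siglech: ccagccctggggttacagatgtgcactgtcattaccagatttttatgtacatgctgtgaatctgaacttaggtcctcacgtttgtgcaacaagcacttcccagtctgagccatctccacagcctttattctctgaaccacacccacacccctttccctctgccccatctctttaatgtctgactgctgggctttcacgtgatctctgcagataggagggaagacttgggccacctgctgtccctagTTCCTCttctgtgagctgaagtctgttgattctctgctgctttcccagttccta
All 4 windows were chosen because they hold the core. Among all 32851 promoter windows of this length 28.3% held it on either strand, among those of the 10848 genes compared below 26.9%, and among those of the 2155 genes higher in microglia 31.7%. Promoter windows were matched for 5 of the 10 microglia marker genes, and those of Fcrls and Siglech held the core while those of P2ry12, Cx3cr1 and Olfml3 did not. A match of 6 letters is a description of the sequence and shows no binding.

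The rule genes themselves describe how the cells were taken and are given without a test. Their summed level among the microglia ranged from 22.3 to 224 UMIs per 10000 with a median of 112 in the WT naive library, and from 22.4 to 235 with a median of 118 in the KO naive library. All 4 genes were detected in 81 of 95 WT and 117 of 125 KO cells. The 3 WT cells just inside the limit stood at 22.3, 24.5 and 25.9 and the 3 just outside at 16.1, 15.4 and 13. In the KO library the 3 inside stood at 22.4, 33.0 and 34.5 and the 3 outside at 18.9, 13.7 and 11.6. Few cells lay near the limit, with 6 cells of each library between 10 and 20 on the outside, and 334 WT and 273 KO cells outside had no UMI of the 4 genes.

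The chosen cells were set beside a clustering of all 926 naive cells. It kept the 4 genes of the rule, and P2ry12, Siglech and Cx3cr1 were among the markers that named the microglia-like cluster. The overlap is therefore a description and no independent check of the label. Of 7 clusters, 1 was microglia-like, with 214 cells of which 210 were chosen by the rule, and its leading genes included P2ry12, the 3 C1q genes, Ctss, Selplg and Laptm5. The other clusters were astrocyte-like (218 cells), endothelial-like (204), oligodendrocyte-like (142), choroid plexus epithelial-like (57), ciliated ependymal-like (48) and neuron-like (43, with Dlx1, Top2a and Mki67 beside neuronal genes). These 706 other cells, with 4 exceptions in the microglia-like cluster, are what the microglia are compared with. Of those exceptions 3, all in the KO library, held 58, 58 and 26 UMIs of 9 genes of border-associated macrophages, and the 1 in the WT library held 52 UMIs of the monocyte list. The 10 chosen cells outside the cluster lay among astrocyte-like (4), oligodendrocyte-like (2), endothelial-like (2), ependymal-like (1) and neuron-like (1) cells. Doublets were not removed by any caller, and 1 barcode was shared by a microglia cell of each naive library.

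The microglia were somewhat shallower than the other cells. Their median was 2279 UMIs and 1294 genes in the WT and 2323 UMIs and 1346 genes in the KO naive library, against 2800.5 UMIs and 1460 genes, and 2842 UMIs and 1564 genes, in the other cells. Summed, they gave 229371 UMIs in WT and 326353 in KO, so that 3 UMIs, the limit that a count of 0 allows, correspond to 13.1 and 9.19 CPM.

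The microglia expressed the homeostatic programme beyond the 4 genes of the rule. All 22 homeostatic genes outside the rule were higher in the microglia than in the other naive cells, by a median log2 difference of 6.77 where the median of all 10848 genes was -0.10. Of the 22 genes 9 passed the filter on low counts through the microglia alone. The comparison uses UMIs summed per library and class, 2 sums a class with the library as a block (edgeR quasi-likelihood test, Benjamini-Hochberg adjusted p of 0.05). In it 2155 genes were higher (19.9%) and 2695 lower (24.8%) in the microglia, of which 1378 of the 2155 were above the level of every other cluster in both libraries and 239 at least 10-fold above it. Because the cells were chosen on expression in these same libraries, the differences are given as a description of the class, with no p-value, and nothing is read from the counts against the background share. With DESeq2 and its own size factors 911 genes were higher and 729 lower.

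Levels are given as CPM, the UMIs of a gene over all UMIs of the summed cells. They come from 3′ counts, 1 per captured transcript, and are not scaled by gene length. Csf1r, the receptor for Csf1 and Il34, was at 2389 (Poisson 95% interval 2193 to 2598) in WT and 2822 (2643 to 3010) in KO microglia, against 11.2 and 27.9 in the other cells. It was found in 91.6% and 92% of microglia thinned to 1000 UMIs, and in 1.09% and 3.25% of the other cells. Tmem119, a membrane protein that separates microglia from other macrophages, was at 1072 and 1253 against 2.81 and 4.10, a log2 difference of 8.49 ± 0.30 (SE). Selplg, the selectin ligand PSGL-1, stood at 1879 and 2176 against 4.21 and 9.02 (8.41 ± 0.29). Fcrls reached 1539 and 1376 against 6.32 and 23.8, and Olfml3, a secreted matrix protein, 902 and 1174 against 8.42 and 9.84. In the other cells of both libraries Tmem119, Selplg and Olfml3 were under the 13 CPM that the filter on low counts asked for. These genes passed it through the microglia alone and so had to be higher. Sparc, at 2982 and 3092, was nearer to the other cells (717 and 800), among which the endothelial-like cluster was highest at 1441.

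**Figure D1:**
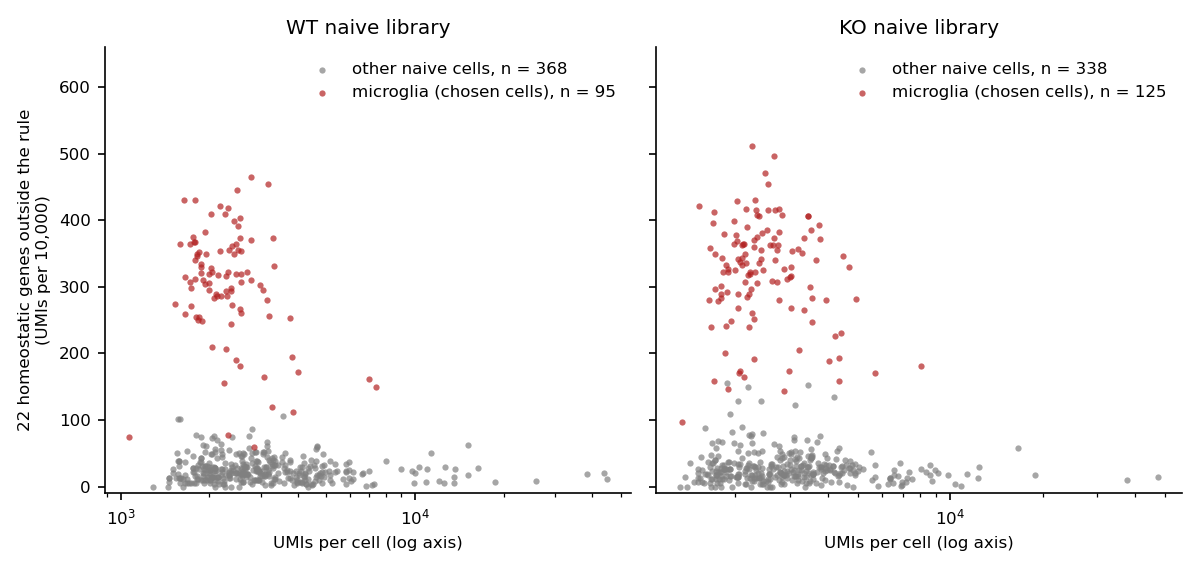
Summed level of 22 homeostatic genes outside the rule (vertical axis, UMIs per 10,000) against UMIs per cell (horizontal log axis) for each cell of the WT naive (left) and KO naive (right) library; red points are microglia chosen by the rule and grey points the other naive cells. The microglia form a band with medians of 312 in WT and 330 in KO, the chosen cells below it reach down into the grey band, and no cell outside the rule reaches the median of the microglia.

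Complement genes were represented by the C1q chains, which form the recognition unit of the classical pathway. C1qb was at 3898 in WT and 4875 in KO microglia against 32.3 and 61.5, C1qc at 3440 and 4520 against 35.1 and 55.8, and C1qa at 3030 and 3876 against 30.2 and 55.8. The receptor subunit Itgam was at 868 and 938 against 8.42 and 7.38. Of the 14 complement genes 11 passed the filter on low counts, of which 8 were higher and 2, the membrane inhibitors Cd55 and Cd59a, lower. Of the 8 higher genes 4 passed it through the microglia alone, and Cd55 passed it through the other cells alone. C3, the central component on which the complement pathways converge, had no UMI in the microglia of either library, and the same was true of the C1 inhibitor Serping1.

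Lysosomal and Fc receptor genes were also mostly higher in the microglia. Cst3, the secreted cysteine protease inhibitor cystatin C, was the most abundant transcript, at 48315 and 52578 against 6374 and 7689, and the astrocyte-like cluster was the next highest at 23343. Ctss, the protease cathepsin S, was at 8231 and 8721 against 54.8 and 88.6, and Ctsd, cathepsin D, at 4159 and 4612 against 288 and 290. Of 22 lysosomal genes 21 were higher and Cd63 was not called, with 314 and 404 in microglia and 460 and 481 in the other cells. Of the 21 higher genes 1 passed the filter through the microglia alone. All 12 genes of the Fc receptor and ITAM adaptor list were called, 11 of them higher. Of the 11 higher genes 6 passed the filter through the microglia alone. The adaptor Tyrobp was at 1282 and 1796 against 14.7 and 31.2, its partner receptor Trem2 at 1199 and 1501 against 8.42 and 15.6, Fcer1g, the shared signalling chain of Fc receptors, at 1042 and 1425 against 16.1 and 30.3, and Fcgr3 at 868 and 827 against 7.72 and 13.9. The exception was Fcgrt, the neonatal Fc receptor, which was lower, at 52.3 and 42.9. Its level was 343 in the endothelial-like cluster, while the remaining clusters, at 0 to 27.1, lay below the microglia.

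Receptors and regulators of the microglial state were nearly all higher as well. Of 10 purinergic and adenosine genes outside the rule 6 passed the filter, 3 of them through the microglia alone, and all 6 were higher. P2ry13, an ADP receptor next to P2ry12 in the genome, was at 510 and 640 against 0.702 and 6.56, Entpd1, the ectoenzyme CD39 that degrades ATP and ADP, at 597 and 496 against 29.5 and 55.0, and the adenosine receptor Adora3 at 153 and 156 against 0 and 0.820. Of the Csf1 and TGF-beta genes 12 of 13 were higher, among them Tgfbr1 (1687 and 1207 against 23.9 and 27.1), the integrin subunit Itgb5 (554 and 548 against 29.5 and 27.9) and Csf3r (240 and 264 against 2.81 and 4.10). Of the 12 genes 5 passed the filter through the microglia alone. Csf1 itself was not called and Il34, a neuronal ligand of Csf1r, had no UMI in the microglia. All 15 myeloid transcription factors were higher, 7 of them genes that passed the filter through the microglia alone. Among the most abundant were Mef2c (1099 and 1121 against 102 and 115), Maf (1243 and 944 against 45.6 and 61.5) and Mef2a (1016 and 971 against 156 and 181).

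**Figure D2:**
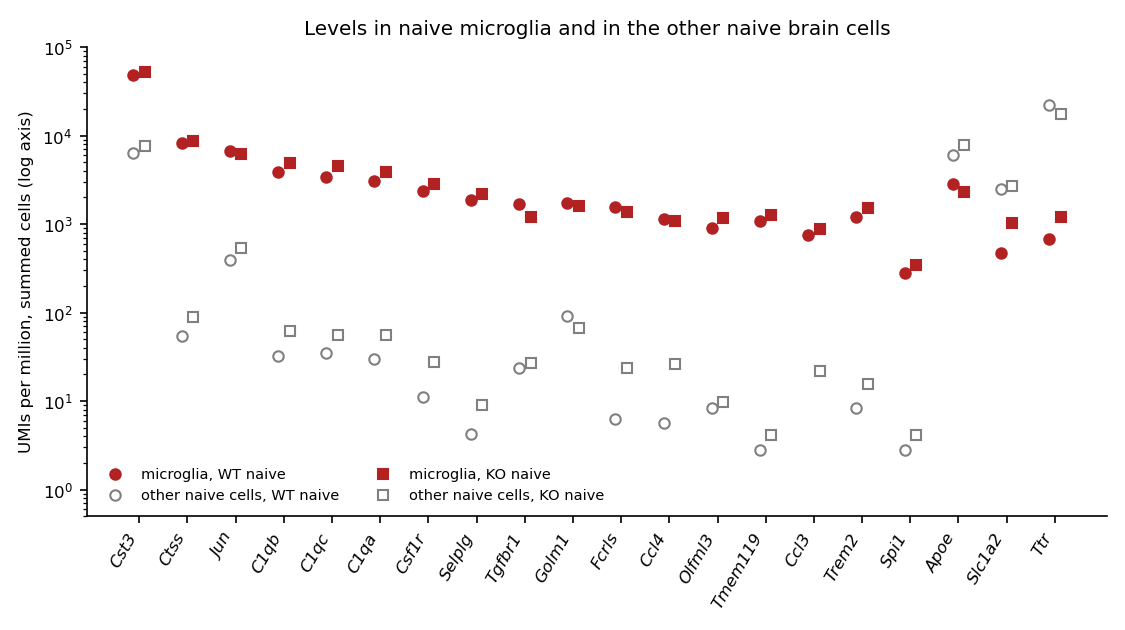
Level of 20 genes (horizontal axis) as CPM of the summed cells (vertical log axis) in naive microglia (filled red) and in the other naive brain cells (open grey), circles for the WT and squares for the KO naive library, 1 value per library and class (Ccl3 in the other WT cells, at 0, is not drawn). The first 17 genes lie above the other cells in both libraries, whereas Apoe, Slc1a2 and Ttr lie below them, with Apoe at 2843 and 2280 against 5986 and 7738.

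The 10 largest fitted log2 differences were in genes with no UMI among the other cells. Their fold is a lower bound taken against 3 UMIs over all 706 other cells, and the fitted order says nothing on whether they exceed genes with a measured fold, such as Tmem119 at 346 and Selplg at 319. Gna15, a G protein subunit that couples receptors to phospholipase C, had 42 UMIs in WT and 65 in KO microglia, at least 170-fold higher, and was spread over 32 and 52 cells. Clec7a, the beta-glucan receptor Dectin-1, had 25 and 46 UMIs (at least 113-fold), but in only 6 cells of each library. Upk1b (21 and 39 UMIs, at least 95.1-fold), Tnfrsf13b, the receptor TACI (22 and 36, at least 92.0-fold), Ptafr, the receptor for platelet-activating factor (16 and 24, at least 63.4-fold), Cryba4 (13 and 28, at least 65.0-fold) and Cmklr1, the chemerin receptor (17 and 20, at least 58.7-fold), together with the predicted genes Gm44860, Gm15503 and Gm27676, completed the set. The 5 largest fitted falls were Vtn, vitronectin of mural cells, with 109 and 172 UMIs in the other cells, Pglyrp1 (113 and 160), Cox8b (126 and 150), coagulation factor F5 (230 and 78) and the ciliary gene Tmem107 (148 and 97), and none of the 5 had a UMI in the microglia.

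Genes linked to activation were mixed. Of 16 chemokines and cytokines 11 passed the filter, of which 9 were higher (Ccl2, Ccl3, Ccl4, Ccl6, Ccl9, Ccl12, Cxcl16, Il1a and Il16) and Il18 was lower. Of the 9 higher genes 7 passed it through the microglia alone and so had to be higher. Of the 29 UMIs of Ccl2 in WT 24 came from 1 cell, and its level of 126 was 21.8 without it. The most abundant were the leukocyte attractants Ccl4, at 1138 and 1069 against 5.62 and 26.2, and Ccl3, at 746 and 882 against 0 and 22.1, followed by Ccl6 at 148 and 162 against 0.702 and 0.820. Il1b had 1 UMI in WT and none in KO, Tnf 3 and 6, and Cxcl10 1 and 0. Of 9 MHC class I genes 7 were higher, among them the light chain B2m at 3745 and 3999 against 925 and 1029 and H2-D1 at 602 and 530 against 383 and 436. The other cells here are all cells together, and within them the endothelial-like cluster was above the microglia for H2-D1 (1316), H2-K1 (846 against 432 and 417) and H2-T23 (209 against 183 and 165), though not for B2m (3016). Of 5 MHC class II genes tested 4 were higher, but 3 of these rested on 1 WT cell, which held 27 of 30 UMIs of H2-Ab1, 24 of 25 of H2-Aa and 25 of 28 of Cd74 in that library. H2-DMa, which helps to load peptides, was found in 27 WT and 39 KO cells, at 144 and 153 against 3.51 and 5.74, and passed the filter through the microglia alone. Without the top cell of each gene the WT levels were 13.1 for H2-Ab1, 4.36 for H2-Aa and 13.1 for the invariant chain Cd74, and in KO Cd74 was at 24.5 against 32.8. Of 16 disease-associated microglia genes 10 passed the filter, of which 4 were higher (Clec7a, Cd9, Ctsl and Cd52) and 3 lower (Apoe, Lgals3 and Fabp5). Of the 4 higher genes 2 passed it through the microglia alone, and Lgals3 passed it through the other cells alone. Spp1 and Gpnmb had no UMI, and Lpl had 4 in WT and 1 in KO. Of 9 interferon-stimulated genes tested none was higher and 4 were lower (Ifit3, Ifitm3, Isg15 and Oasl2), Ifitm3 at 39.2 and 27.6 against 269 and 326. Ifit3, Isg15 and Oasl2 passed the filter through the other cells alone and so had to be lower. Ifitm3 was at 831 in the endothelial-like and 582 in the ependymal-like cluster, while the remaining clusters, at 0 to 22.1, lay below the microglia. None of the 4 cell cycle genes tested was called. Of 20 immediate early and dissociation genes 19 were higher, with Jun at 6692 and 6147 against 392 and 539. This list is known to rise during enzymatic dissociation, which all libraries went through, and its part in these levels was not tested.

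**Figure D3:**
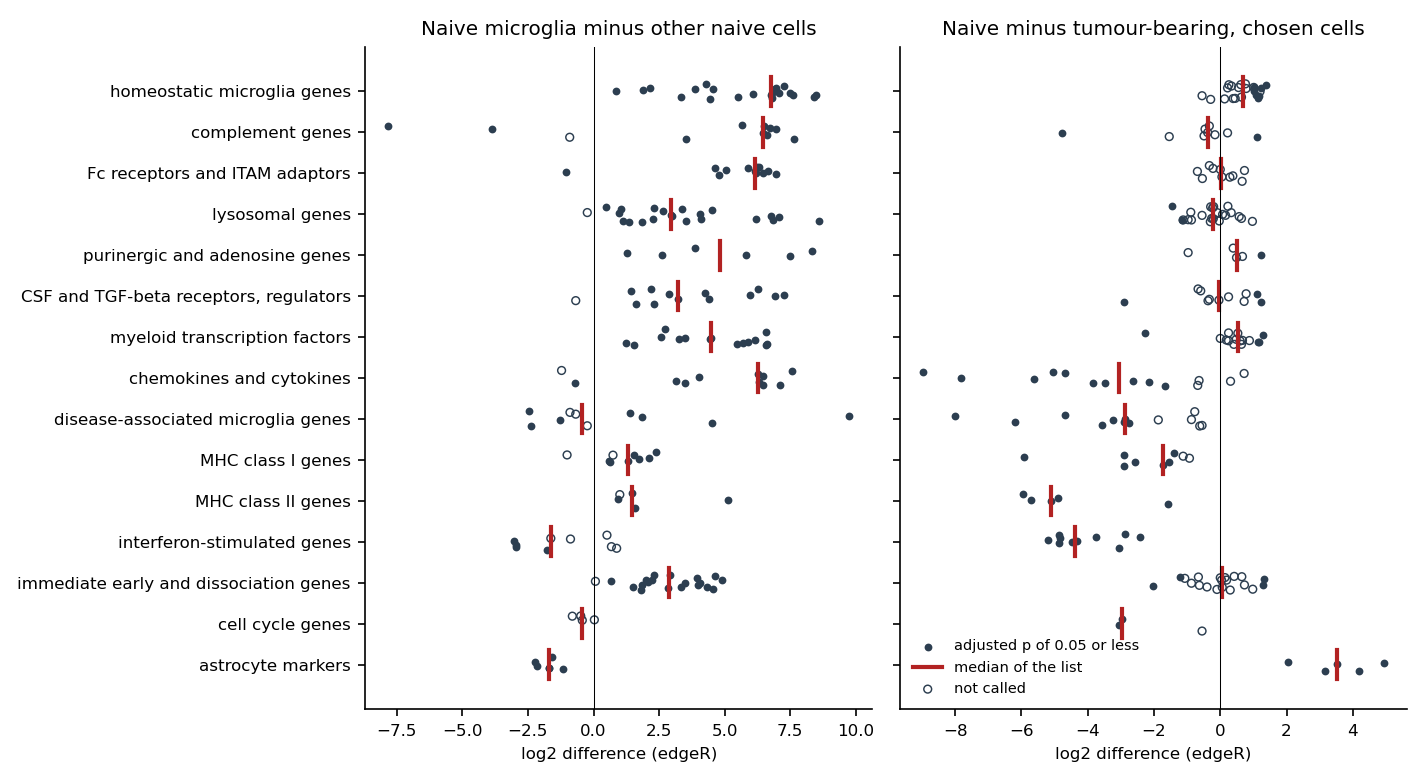
Log2 difference (horizontal axis, edgeR) of each gene of 15 lists (rows) between naive microglia and other naive cells (left) and between naive and tumour-bearing libraries in cells chosen by the same rule (right); each point is a gene, filled where the adjusted p is 0.05 or less, and red bars are list medians over the genes tested. On the left most myeloid lists lie to the right of 0 while the interferon list has a median of -1.63, and on the right the MHC class II, interferon and chemokine lists lie to the left with medians of -5.12, -4.40 and -3.05.

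Each cell was thinned to 1000 UMIs and the Fano factor (variance over mean, near 1 for pure counting) was taken in each library for 654 genes with a mean of at least 0.2. The median of the smaller of both values was 1.05, and 22 genes reached 2 in both libraries. The factor grows with a gene's mean where cells differ, so it is set side by side only for genes of like mean. Ccl4, with a mean of 1.22 UMIs in WT and 1.09 in KO, had factors of 7.67 and 8.20, and Tmem119, with means of 1.06 and 1.32, had 1.36 and 1.12. Fos, with means of 1.60 and 1.86, had 5.92 and 6.29, and Selplg, with means of 1.82 and 2.22, had 1.16 and 1.49. Jun (means of 7.25 and 6.42) had 5.58 and 6.84 and Ctss (8.36 and 8.74) had 2.14 and 1.80. Ccl4, Fos and Jun were named for being among the 8 largest factors, so that they exceed the genes beside them is how they were chosen and is given as a description. Among the 8 largest factors were also those of Apoe (13.9 and 8.39) and Atf3 (3.97 and 4.39), and, at means of 26.0 to 53.1, of the mitochondrial ribosomal RNA mt-Rnr2 (10.5 and 7.66) and Cst3 (7.19 and 6.90), which are not set against the genes above. Fos, Jun and Atf3 encode stress-responsive transcription factors of the AP-1 and ATF families.

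Ccl4 was found after thinning in 29.5% of WT and 28.8% of KO microglia (0.543% and 0.888% of the other cells), and the highest cell of each library held 19 of its 1000 UMIs as Ccl4. The immediate early genes had their highest median, in both libraries, in the cells with 3 or more UMIs of Ccl3 and Ccl4. In the WT library the 52 cells without a Ccl3 or Ccl4 UMI had a median of 13 UMIs of 20 immediate early genes in 1000, the 21 cells with 1 or 2 such UMIs a median of 10, and the 22 cells with 3 or more a median of 22. In the KO library the same medians were 8 over 71 cells, 15.5 over 28 and 29.5 over 26. The lower and upper quartiles of the cells with 3 or more and of those without any were 13 and 42.8 against 7 and 17.2 in WT, and 17.2 and 57.5 against 5 and 17.5 in KO. Single cells of both groups shared much of the range. All cells of a library share its dissociation and depth was fixed by thinning, so the relation is a description over cells and carries no test.

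**Figure D4:**
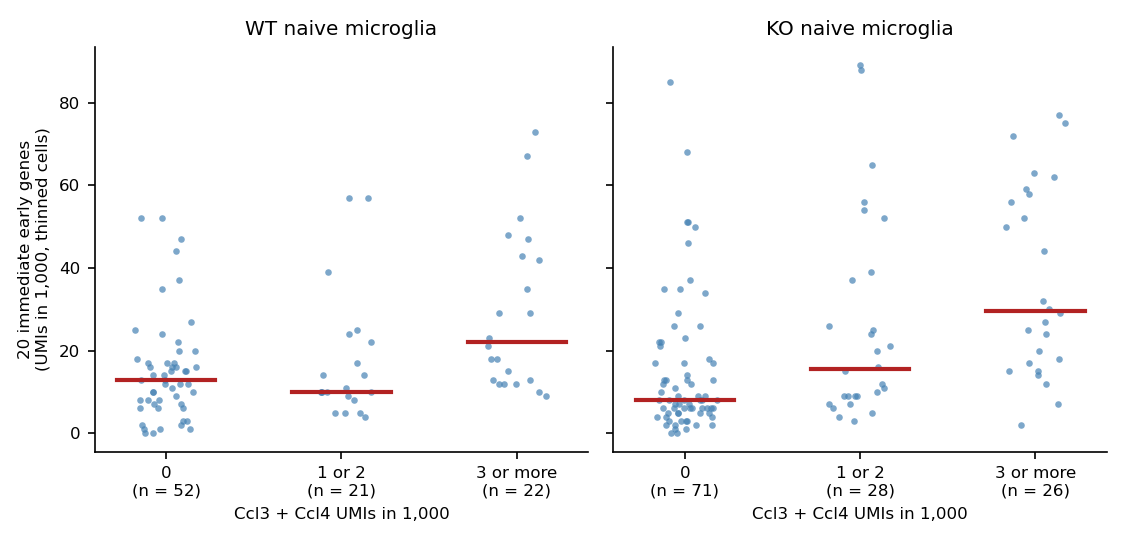
UMIs of 20 immediate early and dissociation genes in 1,000 UMIs per cell (vertical axis) for WT naive (left) and KO naive (right) microglia, grouped by their Ccl3 plus Ccl4 UMIs in the same 1,000 (horizontal axis); points are cells and red bars medians. The cells with 3 or more chemokine UMIs have medians of 22 and 29.5 against 13 and 8 in cells without any, and single cells of the groups overlap.

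Several signals came from single cells, which were chosen after their values were seen. All 16 UMIs of Top2a and 10 of Mki67 in the WT microglia were in 1 cell of 3813 UMIs, which also held 13 UMIs of Nnat and 4 of Dlx1, so that no other WT microglia carried these 2 cycle genes. All 24 UMIs of Cxcl2 were in 1 WT cell of 2832 UMIs with 25 of Pf4, 19 of Mrc1 and 9 of Cd163, which are genes of border-associated macrophages. The WT cell with most of the MHC class II UMIs also held 9 of Cd209a. In the KO library 12 of 13 Cst7 UMIs were in 1 cell with 13 of Clec7a, 37 of Ccl3 and 20 of Ccl4. The border-associated macrophage list was at 702 CPM in WT, with 154 of its 161 UMIs in 2 cells, and at 30.6 in KO. Its most abundant genes were Mrc1 and Pf4, both at 201, in WT and Dab2 at 24.5 in KO. With those 2 cells left out 2231 genes were higher and 2619 lower in the microglia. Ly6c2 and Plac8, markers of infiltrating monocytes, had no UMI in the microglia of either library, and Lyz2 was at 357 and 218.

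RNA of other brain cells was present in the chosen cells. The 7 oligodendrocyte markers summed to 1378 CPM in WT and 2408 in KO microglia (16321 and 15540 in the other cells). The 6 astrocyte markers summed to 1709 and 3055 (7665 and 8935), with Slc1a2 highest at 466 and 1030, and the 5 choroid plexus markers to 754 and 1238 (23796 and 18544), nearly all Ttr at 680 and 1198. Ttr was spread over 65 of 95 and 105 of 125 cells, with at most 13.5% of its UMIs in any cell. The 1000 barcodes of fewest UMIs in each table, with medians of 271.5 and 293 UMIs, had Ttr at 10603 and 13297 and Slc1a2 at 7268 and 6135. By the same limit as the rule, 23 WT and 44 KO microglia carried at least 20 UMIs per 10000 and 2 genes of another class. Without them 72 and 81 cells remained, 15.6% and 17.5% of the naive cells, and the astrocyte sum fell to 668 and 801 and the oligodendrocyte sum to 343 and 691, while the choroid plexus sum stood at 784 and 1069. The marker sums were higher in KO than in WT microglia, as were the genes named towards KO below. Apoe, highest in the astrocyte-like cluster, went the other way, at 2843 in WT and 2280 in KO microglia. The part of this RNA in the KO and WT differences was not tested.

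To see what sets the naive microglia apart from their counterparts in tumour-bearing brains, the same rule was applied to the 6 tumour-bearing libraries. It took 43 cells of 729 in WT early, 19 of 735 in KO early, 5 of 1000 in WT intermediate, 37 of 843 in KO intermediate, 18 of 716 in WT late and 20 of 784 in KO late, from 0.5% to 5.90% of cells where the naive libraries gave 20.5 and 27%. The chosen cells of the tumour-bearing libraries lay lower within the rule, with medians of 33.0 to 73.3 UMIs per 10000 against 112 and 118. UMIs were summed per library and compared in edgeR with genotype as a covariate and the 4 rule genes removed. Of 2670 genes 108 were higher in naive (4.04%) and 210 lower (7.87%), with a median log2 difference of -0.01 over all genes. Both naive libraries lay outside the range of the tumour-bearing ones for 97 of the 108 and 164 of the 210. Naive brain against dissected tumour region, any difference in handling, and in part sex cannot be told apart from the presence of the tumour: per the study's methods the WT early and KO intermediate mice were female, Xist was at 952 and 858 there, and it had no UMI in the other 6 libraries.

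Many genes of inflammation and antigen presentation were lower in the naive microglia. Of the genes that passed the filter on low counts, 10 of 10 interferon-stimulated genes were lower, as were 10 of 14 chemokines and cytokines, 7 of 9 MHC class I genes, 5 of 5 MHC class II genes and 8 of 13 disease-associated microglia genes, and no gene of these lists was higher. Many of them passed through the tumour-bearing libraries alone and so had to differ. The filter asked for 10 UMIs at the median depth, which is 105 CPM, in at least 2 libraries. Under this limit in both naive libraries were all 10 of the interferon genes, 8 of the chemokines and cytokines, 3 of the class I, 1 of the class II and 7 of the disease-associated genes, and the counts are therefore a description. Of the genes that reached the limit in a naive library, the lower ones were the chemokines Ccl2, Ccl3 and Ccl4, the class I genes B2m, H2-D1, H2-K1, H2-T23 and Psmb8, the class II genes Cd74, H2-Aa, H2-Ab1 and H2-DMa, and Cd52 of the disease-associated list. Ccl2, Cd74, H2-Aa and H2-Ab1 reached it in WT naive alone, through the single cells described above. Without the KO naive library these counts were 5 of 10, 6 of 14, 3 of 9, 0 of 5 and 4 of 13, and without the WT naive library 7, 9, 4, 4 and 5 of the same numbers. The class II list did not separate all libraries: it summed to 571 in WT naive and 196 in KO naive, to 290 in WT intermediate and 299 in WT late, and to 11708 to 20681 in the other 4. The largest fall was in Il1b, the interleukin-1 beta cytokine, at 4.36 in WT naive and 0 in KO naive against 905 to 1675 in the tumour-bearing libraries (median 1585). Spp1, osteopontin, had no UMI in either naive library against 35.5 to 696 (median 182), Cxcl10 was at 4.36 and 0 against 58 to 1326 (median 511), Ptgs2, the inducible cyclooxygenase, at 4.36 and 0 against 53.2 to 468 (median 243), and Hcar2, a receptor for niacin and ketone bodies, at 0 and 0 against 28.6 to 156 (median 85.5). Summed over libraries, Spp1 and Hcar2 were at least 43.6-fold and 17.1-fold higher in the tumour-bearing cells, with the naive count taken as 3 UMIs. Hcar2 was not called without the KO naive library. None of these 5 genes overlapped between naive and tumour-bearing libraries, and all 5 were under the limit in the naive ones, so no test is given. Of the shared abundant genes, B2m was at 3745 and 3999 against 10322 to 16833 (log2 difference -1.72 ± 0.35 SE, edgeR quasi-likelihood test, Benjamini-Hochberg adjusted p = 0.0033), and Ccl4 at 1138 and 1069 against 3788 to 13976 (-2.63 ± 0.48, edgeR adjusted p = 0.0013). Ccl4 and Ccl3 were thus far above the other naive cells in the naive microglia and still lower than in any tumour-bearing library (1044 to 4581 for Ccl3). The monocyte list moved with these genes: Lyz2 was at 357 and 218 against 444 to 2146. Its part in the falls was not tested.

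Of the 22 homeostatic genes 7 were called, all higher in naive (Tmem119, Selplg, Sall1, Slc2a5, Golm1, P2ry13 and Slco2b1), and 15 were not called, among them Aif1 at -0.55 and Crybb1 at -0.29. The list had a median log2 difference of 0.70. Tmem119 was at 1072 and 1253 against 290 to 887 (median 583, 1.01 ± 0.32, edgeR adjusted p = 0.046), Selplg at 1879 and 2176 against 348 to 1118 (median 898, 1.38 ± 0.36, edgeR adjusted p = 0.017), and Sall1, a transcription factor that maintains microglial identity, at 296 and 309 against 100 to 215 (median 127, 1.15 ± 0.33, edgeR adjusted p = 0.029). Each was above the range of the tumour-bearing libraries. Csf1r at 2389 and 2822 lay above 1160 to 1863 but did not pass the test (edgeR adjusted p = 0.10). Tgfbr1 was higher (1.22 ± 0.31, edgeR adjusted p = 0.014), as were Maf (1.28 ± 0.28, edgeR adjusted p = 0.0059) and Jun (1.29 ± 0.34, edgeR adjusted p = 0.017). Their lists went both ways. Of 11 Csf1 and TGF-beta genes tested 2 were higher and Csf1, under the limit in both naive libraries, was lower (-2.92). Of 15 myeloid transcription factors 3 were higher and Cebpb was lower (-2.28). Of 20 immediate early and dissociation genes 2 were higher, Atf3 (-1.22) and Nfkbiz (-2.02) were lower, and 16 were not called. The C1q genes and Ctss did not pass the test, with C1qa at 3030 below and 3876 inside the range of 3595 to 6215, C1qb at 3898 and 4875 below all of 5733 to 7021, C1qc at 3440 below and 4520 inside 4246 to 6538, and Ctss at 8231 and 8721 inside 6473 to 14007. The chosen tumour-bearing cells had lower rule values, as given above, and whether this had a part in the homeostatic differences was not tested. With the rule raised to 40 UMIs per 10000 none of the 22 was called (median 0.55), without the KO naive library none (median 0.67), without the WT naive library 1 (median 0.87), and without cells that carry border-associated macrophage transcripts 4 (median 0.59). The first and last of these also removed WT intermediate, which kept 2 and 4 cells and so fell under the 5 cells a sum needs, and without WT intermediate alone Tmem119, Golm1 and Slco2b1 lost their calls. Tmem119 also lost its call without KO early, KO intermediate or KO late, and Sall1 without KO early. Tgfbr1, Maf and Jun were called neither without KO naive nor without WT naive.

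The 5 largest rises in naive were Gja1, Mt3, Plpp3, Acsl3 and Ttyh1, of which Gja1, Plpp3 and Ttyh1 were highest in the astrocyte-like cluster among the other naive cells (4398, 4720 and 3899). Gja1, connexin 43, was at 140 and 313 against 0 to 13, Plpp3 at 166 and 380 against 0 to 17.7, Ttyh1 at 249 and 404 against 0 to 28.6, the metallothionein Mt3 at 140 and 150 against 0 to 17.3, and the fatty acid ligase Acsl3 at 183 and 260 against 0 to 116. All 5 were lower in the microglia than in the other naive cells. The astrocyte list as a whole was at 1709 and 3055 in the naive microglia and at 116 to 408 in the tumour-bearing libraries, and all 5 of its tested genes were called higher, 3 of them without the KO naive library. Of these 5 astrocyte genes 3 were under the limit in all tumour-bearing libraries and passed the filter through the naive ones alone. Of the 5 largest rises, Gja1, Mt3, Plpp3 and Ttyh1 were under it in all tumour-bearing libraries, and Acsl3 reached it there only in WT intermediate. All 5 rises thus needed the naive libraries to pass and are given as a description. Without the KO naive library Gja1, Mt3, Plpp3 and Acsl3 were not called, and Mt3 was not called without the WT naive library. With the cells that carry markers of another class left out, these 5 named genes no longer passed the filter on low counts, 2 astrocyte genes were tested and both called, and 9 of 22 homeostatic genes were called higher.

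The knockout was compared with the wild type only as 1 library against 1, without a test. Acod1 had no UMI in the microglia of either genotype or in the other naive cells, so the targeted gene could not be used to check the labels here. Of 875 genes with at least 100 UMIs over both libraries and outside the rule, 10 were more than 2-fold higher in KO (1.14%) and 5 more than 2-fold lower (0.571%). The median log2 ratio was 0.02, and 0.63 and -0.62 were its 95th and 5th percentiles. Identity genes lay within this range. Csf1r was at 2389 in WT and 2822 in KO, Tmem119 at 1072 and 1253, and Tgfbr1 at 1687 and 1207. The C1q genes were all somewhat higher in KO, C1qb at 3898 (3646 to 4162) in WT and 4875 (4638 to 5121) in KO, and they were higher in the other naive KO cells as well (32.3 and 61.5).

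**Figure D5:**
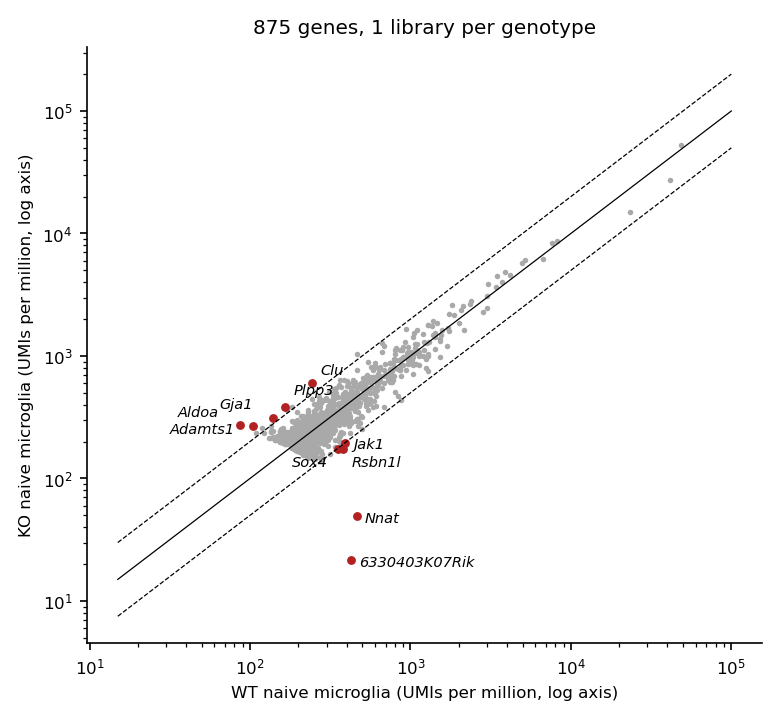
Level of 875 genes in WT naive (horizontal) and KO naive (vertical) microglia, as CPM of the summed cells on log axes; the solid line marks equal levels, the dashed lines 2-fold, and red points the 5 largest ratios each way. Most genes lie between the dashed lines, and Nnat (462 and 49.0) and 6330403K07Rik (427 and 21.4) lie farthest below.

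The 5 largest ratios towards KO were Aldoa, a glycolytic enzyme (log2 1.65, exact 95% interval 0.93 to 2.42, 20 and 89 UMIs), the protease Adamts1 (1.37, 0.70 to 2.08), Clu, clusterin (1.29, 0.86 to 1.75), Plpp3 (1.20, 0.66 to 1.76) and Gja1 (1.16, 0.58 to 1.78). In the other naive cells their ratios were smaller, at 0.32, 0.40, 0.25, 0.37 and 0.05. Slc1a2 at 1.14 and the myelin gene Mag at 1.11 were also past 2-fold, beside the astrocyte and oligodendrocyte sums that were higher in KO. Aldoa was spread evenly, found in 20 WT and 61 KO cells with at most 6 UMIs in a cell. Towards WT, 93 of the 98 UMIs of 6330403K07Rik (-4.32, -5.67 to -3.22) came from 1 cell of 6989 UMIs and 58 of the 106 of Nnat (-3.24, -4.10 to -2.47) from the same cell, and the levels without the top cell were 21.8 and 209. Rsbn1l (-1.12, -1.63 to -0.62), Sox4 (-1.02, -1.53 to -0.51) and the kinase Jak1 (-1.0, -1.49 to -0.52) were spread over at least 38 WT cells each. In the other naive cells Sox4 went the other way (0.86, 0.40 to 1.33). There 6330403K07Rik was at -0.76, Nnat at -0.32, Rsbn1l at -0.16 and Jak1 at 0.03. With the cells that carry markers of another class left out, 2 of 515 genes were past 2-fold towards KO and 4 towards WT, and none of the 5 genes named towards KO still had 100 UMIs, nor had Nnat and 6330403K07Rik. The remaining 3 kept their direction there, at -1.07 for Rsbn1l, -0.93 for Sox4 and -0.98 for Jak1.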

How the data were processed

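Single-cell RNA of 8 Drop-seq libraries was used, 1 for each genotype and condition. The authors deposited raw UMI counts, a gene by barcode table with 3000 barcodes for each library. The submitters' processing notes name bcl2fastq 2.0, STAR, GRCm38 and mm10. Members and gene lists were chosen with earlier results of these data known. The 1000 barcodes with most UMIs and at least 1000 genes were kept per library, and doublets were not removed. The naive tables summed to 3137417 (WT) and 2885345 UMIs (KO).

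UMIs were summed per library and class, with at least 5 cells a sum. The tests were edgeR 4.0.16 quasi-likelihood (R 4.3.3, TMM, filterByExpr), with the library as a block between microglia and other cells, at a Benjamini-Hochberg adjusted p of 0.05. On simulated data 87.5% (10848 genes) and 91.0% (2670 genes) of 200 genes changed 4-fold were called, beside 13 and 10 unchanged genes. The simulation gave every gene the same dispersion and changed none of the genes of lowest mean, so these shares do not cover such genes. Nothing in the labels says that libraries share animals or days. Clusters are Leiden clusters (leidenalg 0.10.2) from 50 principal components. KO and WT are 1 library each, so ratios carry exact binomial intervals. Named genes are the microglia markers, the up to 4 most abundant genes of each list, the 10 largest fitted rises and 5 falls in microglia, the 5 largest each way between naive and tumour-bearing and between KO and WT, the 8 largest Fano factors and Acod1. Alternatives covered the rule, the filters, the tool and scaling, and the leaving out of libraries or mixed cells. Leaving out cells with border-associated macrophage transcripts, and mixed cells in the tumour-bearing comparison and in the shares, was chosen after seeing the data. Intervals of CPM are exact Poisson. Each SE was derived as the absolute log2 difference over the square root of the quasi-likelihood F statistic. Results on some genes are not reported here.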

Additional observations from a re-analysis of the deposited data

Results flagged for a closer look

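Among 13 measures checked over the 6 tumour-bearing libraries, 2 had a library far from the others, and chance flags about 5% of such groups. Mt3 was at 17.3 CPM in KO intermediate and at 0 in the other 5 libraries, which rests on 2 UMIs. Acsl3 was at 116 CPM in WT intermediate, a sum of 5 cells, and between 0 and 17.3 in the others.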

How the results depend on the processing

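Within 1.5 times of the values given, or within counting error, lay all shares and counts other than those named here. With cells that carry markers of another class left out, microglia were 15.6% of WT and 17.5% of KO naive cells. DESeq2 called 911 genes higher and 729 lower in microglia than in other cells, where edgeR called 2155 and 2695, and without the replicate block, here the library, edgeR called 2003 and 2511. Between naive and tumour-bearing libraries (108 higher, 210 lower) 225 were higher with no filter on low counts, 301 were higher and 432 lower with a rule minimum of 10 UMIs per 10000, and 37 and 111 with 40, which also removed WT intermediate (2 cells left). Leaving out each library gave 12 to 142 higher and 50 to 242 lower, both lowest without KO naive. Without WT naive 29 were higher and 93 lower. Past 2-fold in KO against WT (10 higher, 5 lower of 875 genes) were 6 higher and 9 lower of 938 with a rule minimum of 10, and 3 lower of 875 with TMM factors. At 500 genes per cell 19 of 1547 were higher, with mixed cells left out 2 of 515, and at 50 UMIs per gene 39 higher and 26 lower of 2180. Past 2-fold either way in these last 3 settings were 1.62%, 1.17% and 2.98% of genes, against 1.71%. Thinned to 1500 UMIs, 40 of 1102 genes measured had a Fano factor of 2 or more in both libraries in place of 22 of 654. For all of these the cause was not tested.

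Of the named genes' differences between microglia and other cells, 424 alternative values kept direction and call and 13 lost the call. Between naive and tumour-bearing, 550 kept both, 57 lost and 20 gained the call, and 3 turned direction without a call: Cd81 (0.13) to -0.01 at a rule minimum of 40, and Crybb1 (-0.29) to 0.06 without KO naive and 0.16 without WT early. Its values ranged from -0.52 to 0.16 over the libraries left out.

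Each naive genotype is 1 library, so p-values measure only the spread between libraries, and KO against WT has no test. A count of 0 allows up to 13.1 CPM in WT and 9.19 in KO microglia (3 UMIs). WT intermediate gave 5 cells. No paired analysis was possible because naive and tumour-bearing libraries, and KO and WT, are tied by no animal or replicate number in the labels.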
